A study of Homo sapiens with 21 samples.

Results

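SOX10 is a transcription factor of the SOX family, whose members bend DNA through an HMG box. It specifies the neural crest, and its descendants, Schwann cells and melanocytes, need it to be born and to mature. In glia it switches on genes of myelin and of neuregulin reception, and in melanocytes it acts with MITF and PAX3 on pigment genes. In melanoma, cells that have lost it are known to leave the melanocytic and neural-crest-like states for one richer in matrix and adhesion genes.

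The libraries described here came from A375, an established line of human melanoma cells that carries a mutant BRAF. The gSOX10 #2 group was 1 clone of A375 that had been transfected with a Cas9 plasmid and a crRNA against SOX10 (guide #02), selected with puromycin, expanded from a single cell and chosen for loss of the SOX10 protein. The comparison used 6 of the 21 libraries of the series, 3 of gSOX10 #2 and 3 of the A375 parental line. The parental line carries no SOX10 edit and is not described as cloned or selected, so what cloning and puromycin selection did to gSOX10 #2 cannot be told apart from SOX10 loss. A 2nd knockout clone made with another guide, gSOX10 #4, also had 3 libraries and was used to test which changes differed between the clones. All groups grew in DMEM with FBS and without inhibitor. Independent replicates of each clone are described, but nothing in the labels says what separates them. The p-values thus measure spread between libraries of a group, pooled over all 21 libraries of the series, and not spread between clones.

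Expression was read as normalized values, which are gene counts estimated from reads of poly(A) RNA and scaled between libraries. A gene was tested if it reached 10 in at least 3 libraries. Values summed to 60.01 M to 60.28 M in the gSOX10 #2 libraries and to 63.5 M to 68.3 M in the parental libraries. The number of reads behind a value could not be recovered, so no interval for counting error is given. Genes at 10 or more numbered 16860 to 17154 in gSOX10 #2 and 16370 to 16527 in the parental line. Across the tested genes (genes are not independent replicates) Pearson's r between libraries was 0.979 to 0.987 within gSOX10 #2, 0.985 to 0.988 within the parental line and 0.924 to 0.936 between them. Replicate 2 of gSOX10 #2 had the lowest values of its group for many proliferation genes. In bulk RNA, fewer cells of a kind and less RNA per cell cannot be told apart.

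SOX10 itself (chr22:37970686-37987422 in GRCh38, minus strand) had 392, 504 and 459.6 in gSOX10 #2, against 10348, 11877 and 12822 in the parental line. The log2 change was -4.69 (standard error, SE, 0.47, limma adjusted p = 3.36e-07, Benjamini-Hochberg over all tested genes), a mean 25.8-fold lower in the clone. SOX10 RNA was thus still read in every library of the clone. The difference from gSOX10 #4, which averaged 487, was -0.11 and did not pass the test (limma adjusted p = 0.901).

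Of the 19290 genes tested, 3064 were higher in gSOX10 #2 (15.9%) and 1501 were lower (7.78%), together 4565 genes or 23.7%. Calls required a limma adjusted p no higher than 0.05 and at least a 2-fold difference. The counts of list members below are to be read beside these shares. The median change over all genes was 0.03 on the log2 scale. The 3 libraries of one group all lay above the 3 of the other for 4448 of the called genes, beside 60.6% of all genes. Changes of 8-fold or more numbered 667 upward and 248 downward. The split between higher and lower calls depended on scaling, since the higher share was 67.1% as reported and 53.9% after quantile normalization, where 2288 genes were higher and 1958 lower.

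The promoter sequences shown here are of some members that hold the letters marked below and to which the text returns. Members without a match are not shown. They are stretches of the RefSeq windows that run from 250 bases before to 50 after a gene's start (GRCh38.p14), printed on the gene's strand. Capitals mark the letters ACAAAG or ACAATG, which SOX proteins can bind, TTTCGCGC or TTTGGCGC, which E2F factors can bind, or the interferon-stimulated response element (GAAA, 2 bases of any kind and GAAA), each on either strand.
MIA (chr19:40774931-40774990, plus strand): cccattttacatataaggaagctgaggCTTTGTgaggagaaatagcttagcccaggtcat
NES (chr1:156677358-156677417, minus strand): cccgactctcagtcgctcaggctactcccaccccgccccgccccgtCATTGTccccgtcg
GJB1 (chrX:71214989-71215048, plus strand): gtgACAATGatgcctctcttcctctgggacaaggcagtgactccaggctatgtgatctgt
CDH19 (chr18:66604262-66604321, minus strand): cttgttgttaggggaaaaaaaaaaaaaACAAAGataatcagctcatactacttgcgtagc
MCM6 (chr2:135876522-135876595, minus strand): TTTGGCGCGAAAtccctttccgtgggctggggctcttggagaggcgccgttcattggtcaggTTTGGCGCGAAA
MCM3 (chr6:52284713-52284772, minus strand): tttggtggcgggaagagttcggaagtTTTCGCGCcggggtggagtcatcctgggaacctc
IFIT1 (chr10:89392488-89392547, plus strand): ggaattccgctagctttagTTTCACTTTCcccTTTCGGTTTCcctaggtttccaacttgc
ISG20 (chr15:88638922-88638981, plus strand): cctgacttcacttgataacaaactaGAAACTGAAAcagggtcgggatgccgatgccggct

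The SOX letters stood in the windows of 7 of the 8 fallen Schwann and glial genes with a RefSeq window, 9 of the 16 tested members with one, and 17.2% of the 13154 tested genes that matched one. The E2F letters stood in 8 of 24 fallen DNA replication genes, 10 of 34 tested, and 1.89% of all. The response element stood in 12 of 17 risen interferon-stimulated genes, 25 of 38 tested, and 2.995% of all. For 2 other lists the share in fallen members was below that in tested members. The E-box CACGTG, which MYC can bind, stood in 6 of 18 fallen nucleolar and MYC target genes, 14 of 35 tested, and 9.54% of all. The Y box CTGATTGG stood in 3 of 9 fallen MHC class II genes, 4 of 11 tested, and 5.58% of all. A match of letters is a description and not a bound site. The 4 matches in MCM6 overlap in pairs, since TTTGGCGC and the reverse complement of TTTCGCGC share bases there.

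Genes of the Schwann cell and glial lineage were lower in gSOX10 #2. Of 30 listed genes 25 were tested, and 14 fell and 1 rose, with a median change of -1.31. The count of rises was 0 without parental replicate 1 or 2 or gSOX10 #2 replicate 2 or 3. CDH19, a cadherin of Schwann cell precursors, had 2.83, 26.2 and 0.88 in gSOX10 #2, against 2311, 2052 and 1895 in the parental line (log2 change -8.48, SE 0.90, limma adjusted p = 7.41e-07). GAS7, a regulator of neurite outgrowth, had 20.6, 10.2 and 39, against 5418, 6586 and 6775. ERBB3, the neuregulin receptor of Schwann cells, had 104, 172 and 117, against 5993, 9355 and 9197. The groups stood far apart for all 3 genes, and the scatter of CDH19 in the clone lay among values near 0.

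S100B, a calcium-binding protein used to mark melanocytes and Schwann cells, fell by 5.04 (SE 0.52). GJB1, the gap junction protein connexin 32 of myelin whose window is printed above, had 5.85, 0.891 and 2.6 in gSOX10 #2, against 367, 406 and 361 in the parental line. NES, the intermediate filament nestin of neural progenitors, was among the more abundant transcripts of the parental line with 26602, 31948 and 31316 and had 1309, 727 and 752 in the clone (log2 change -5.06, limma adjusted p = 4.55e-08). MIA, a protein secreted by melanoma cells, had 464, 559.7 and 464 in gSOX10 #2, against 3700.3, 3874 and 3572. FABP7, a fatty acid binding protein of glia and melanoma, fell by 5.34, and UGT8, an enzyme of myelin lipids, fell by 1.69. The groups did not overlap for any of these 6 genes, beside 60.6% of all tested genes. They were named among called genes, most of which do not overlap, so this is not a further result. The nerve growth factor receptor NGFR, a mark of neural crest stem cells, had 966, 1304 and 1033 in the clone and 760.4, 757 and 724 in the parental line, a change of 0.55 that did not pass the test (limma adjusted p = 0.282).

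**Figure D1:**
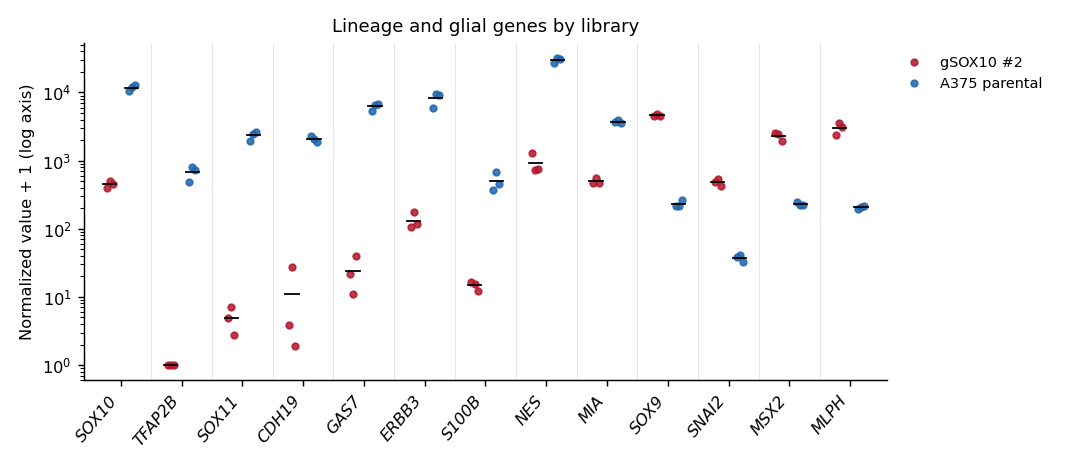
Normalized value plus 1 on a log axis for 13 lineage genes, with 1 point per library (gSOX10 #2 in red, A375 parental in blue) and a black line at each group's mean. The 3 clone libraries sit below the parental libraries for SOX10 through MIA and above them for SOX9, SNAI2, MSX2 and MLPH.

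Other SOX genes moved in both directions. Of 12 tested, 3 rose and 4 fell. SOX9, which shares its DNA-binding domain type with SOX10 and directs cartilage and stem cell programs, had 4575, 4769 and 4472 in gSOX10 #2, against 213, 214 and 261 in the parental line (log2 change 4.33, SE 0.23, limma adjusted p = 1.85e-10). SOX4, a factor of progenitors, rose by 1.64 and was also higher than in gSOX10 #4 (difference 1.98, limma adjusted p = 2.91e-05). SOX11, the close relative of SOX4, had 3.94, 6.1 and 1.76 in the clone, against 1959, 2492 and 2643. SOX5 and SOX6, SOXD factors of cartilage and oligodendrocytes, fell (log2 changes of -1.73 and -3.72). The libraries of the groups did not overlap for these genes, beside 60.6% of all tested genes. These too were named among called genes, so the lack of overlap is not a further result.

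Of the other neural crest transcription factors, 22 were tested, 8 rose and 5 fell, and the median change was 0.02. TFAP2B, an AP-2 factor of the crest, was listed at 0 in all 3 gSOX10 #2 libraries, against 479.9, 809 and 737 in the parental line. Its paralog TFAP2A had 1249, 941 and 1119 in the clone, against 384, 338 and 321 (log2 change 1.66, limma adjusted p = 3.33e-06). The AP-2 genes thus moved in opposite directions. SNAI2, a repressor of epithelial genes in migrating crest cells, had 479, 539.9 and 424 in gSOX10 #2, against 37.8, 40.3 and 31.5 in the parental line, and MSX2, a homeobox factor of crest mesenchyme and bone, had 2496, 2483 and 1967, against 249.7, 219 and 225. The mesenchymal homeobox gene PRRX1 rose by 1.75, with 17940.4, 21883 and 19994 in the clone and 4667, 6642 and 6676 in the parental line. POU3F2, a factor of neural and invasive melanoma states, fell by 2.46, ZIC2 fell by 1.94, FOXD3, an early crest factor, fell by 2.83, and ETS1 fell by 1.42. PAX3, SOX10's partner in melanocytes, had 539, 509 and 626 in the clone and 682, 662 and 750 in the parental line, under the fold threshold at -0.33. TWIST1 and SNAI1, factors of epithelial-mesenchymal transition, changed by 0.18 and -0.34, and neither passed the test.

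The melanocyte label of A375 rested on few genes. TYR and MLANA were listed at 0 in all 6 libraries, PMEL reached at most 46.5 and TYRP1 at most 52.8, while PRAME, a melanoma antigen, had 9738, 13008 and 12459 in gSOX10 #2 and 9271, 11903 and 10875 in the parental line. MITF, the master factor of pigment cells, had 2384, 2689 and 2115, against 1502, 1448 and 1390, a change of 0.72 that did not pass the test (limma adjusted p = 0.0678). Of 17 pigment cell genes tested, 6 rose. The endothelin receptor EDNRB, the 1 that dropped, fell by 1.17. MLPH, which links melanosomes to myosin, had 2383, 3499 and 3110.2 in the clone, against 191, 207 and 215, QPCT, an enzyme of peptide ends, rose by 2.97, and GPNMB, a glycoprotein of melanosomes and lysosomes, rose by 1.66. The others that rose were GPR143 (melanosome size), CAPN3 (a protease) and BCL2A1 (cell survival), by 1.97, 2.80 and 1.91. BCL2A1 lost the call without gSOX10 #2 replicate 1 or parental replicate 1, at 1.41 and 1.49. TYRP1, an enzyme of melanin synthesis, changed by 0.16 and did not pass the test.

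**Figure D2:**
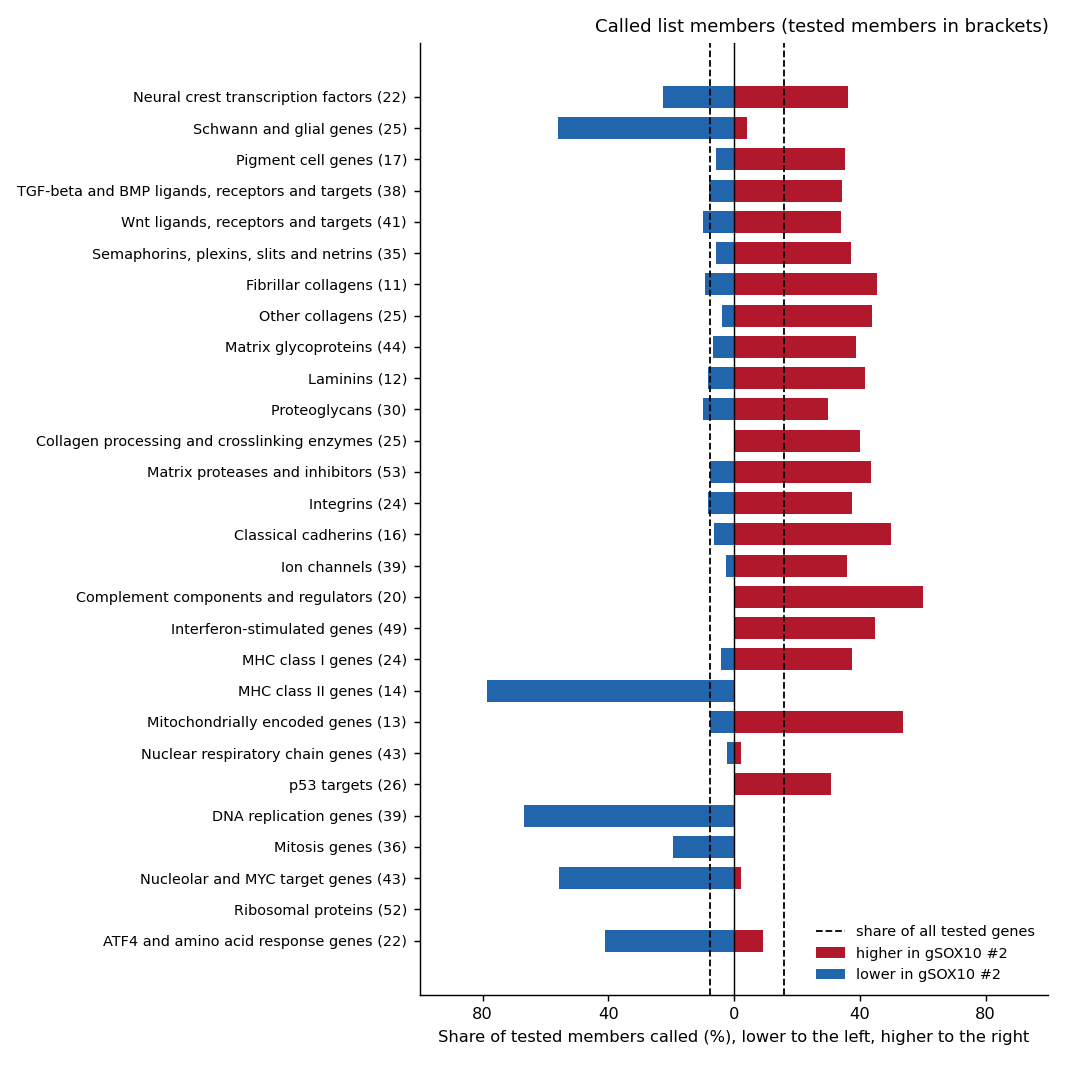
Share of tested members called lower (blue, to the left) and higher (red, to the right) in gSOX10 #2 for 28 gene lists, in percent, with the number tested in brackets and dashed lines at the shares over all tested genes, 7.78% and 15.9%. Glial, MHC class II, DNA replication, nucleolar and amino acid response genes lie mostly on the left, and matrix, adhesion, complement and interferon-stimulated genes on the right.

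The largest rises among protein-coding genes included receptors best known in leukocytes. CYSLTR1, a receptor for leukotrienes, had 1657, 1774 and 2621 in gSOX10 #2, against 0, 0.865 and 0.81 in the parental line (log2 change 10.36, SE 0.42, limma adjusted p = 4.65e-12). FPR1, a formyl peptide receptor best known in neutrophils, had 889, 1817 and 2169, against 0, 2.45 and 0. FPR2, its relative on chromosome 19, had 497, 553 and 488, against 0 in all 3 parental libraries. The annotated spans of FPR1 and FPR2 overlap on opposite strands, so some reads may belong to either. PADI2 and PADI4, enzymes of 1 gene cluster on chromosome 1 that turn arginine into citrulline, rose by 9.11 and 8.21. Replicate 1 was the lowest clone library for both, with 865 for PADI2 and 552 for PADI4, and lay above every parental library. That was fixed by the choice of genes, since all in this paragraph were picked among those whose groups did not overlap. CYP4F12, a fatty acid hydroxylase, rose by 8.14, TENM4, a teneurin of neurite guidance, by 7.81, ANXA8, an annexin, by 7.57, the adhesion receptor ADGRF4 by 6.65 and SH3GL2, an endophilin of synaptic vesicles, by 6.63.

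Among the largest falls besides the lineage genes, LPL, the lipase that frees fatty acids from lipoproteins, had 3.54, 1.86 and 9.08 in gSOX10 #2, against 789, 719 and 934 in the parental line (log2 change -7.32, SE 0.83, limma adjusted p = 1.67e-06). OPRD1, the delta opioid receptor, had 25.2, 9.55 and 14.5, against 1629, 1667 and 1835. MUC5B, a gel-forming mucin, had 10.8, 2.62 and 3.52, against 1559, 1252 and 1179. MGAM2, a maltase relative, was listed at 0 in 2 clone libraries and at 0.88 in the 3rd, against 2047, 1914 and 1077. FDCSP fell by 8.84, and SERPINA3, a protease inhibitor of the acute phase, fell by 6.22 though its parental values ran wide, with 3508, 8160.3 and 12965. FLG, filaggrin of the skin barrier, fell by 5.95, and its parental values were likewise wide, with 1371, 397 and 207. These genes were chosen among those whose groups did not overlap, so the lack of overlap is not a further result.

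Genes listed at 0 throughout one group and at 100 or more in every library of the other numbered 5 upward and 4 downward. Besides FPR2, the genes on in gSOX10 #2 and at 0 in the parental line were ARHGAP36, an activator of hedgehog signaling, with 299, 335 and 325, the RNA export paralog NXF2B with 181, 184 and 196, the antisense RNA LYPLAL1-AS1 with 223, 119 and 207 and the zinc finger gene ZNF135 with 120, 117 and 149. Those at 0 in the clone were TFAP2B, PPP4R3C with 267, 232 and 262 in the parental line, the unnamed gene ENSG00000253500 with 231, 289 and 352, and NDN, an imprinted growth suppressor of neurons, with 315, 311 and 287. NDN averaged 195 ± 85.9 (SD, n = 3) in gSOX10 #4, and the difference between the clones was -7.53 (limma adjusted p = 4.98e-13). No fold is given against a group at 0. NXF2B has a near-identical copy, so its reads cannot be assigned with certainty.

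FN1, which encodes fibronectin, a fibril-forming glycoprotein of the matrix, had 459707, 482843 and 426978 in gSOX10 #2, against 8314, 5365 and 8834 in the parental line, 60.8 times the parental mean (log2 change 5.96, SE 0.32, limma adjusted p = 1.81e-10). TGFBI, a matrix protein induced by TGF-beta, had 128331, 132536 and 127886, against 18659, 15492 and 17020. B2M, the light chain of MHC class I, had 120466, 116297 and 104644, against 50270.3, 45802 and 44817. B2M changed by 1.28. Other abundant genes that rose were S100A6 (1.26), DCBLD2 (1.37), PSAP, a lysosomal sphingolipid activator (1.57), and SQSTM1, an autophagy receptor (1.51).

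The matrix lists leaned toward higher calls beside 15.9% higher and 7.78% lower over all genes. Of 44 matrix glycoproteins 17 rose and 3 fell, of 11 fibrillar collagens 5 and 1, of 25 other collagens 11 and 1, of 12 laminins 5 and 1, and of 30 proteoglycans 9 and 3. The laminin fall was lost without parental replicate 1 or gSOX10 #2 replicate 1. POSTN, periostin of tendon and tumor stroma, had 5765, 5244 and 3879 in gSOX10 #2, against 53, 55.1 and 42.6 in the parental line (log2 change 6.59, SE 0.31, limma adjusted p = 3.01e-11). VCAN, the large proteoglycan versican, had 20648, 27601 and 25815, against 1063, 1354 and 1176. SVEP1, an integrin ligand, had 1798, 1729.9 and 1501, against 66.9, 118 and 69.2. The basement membrane genes LAMB3, LAMA5 and LAMA1 rose by 3.10, 2.79 and 3.02, and COL4A5, a network collagen, by 3.27.

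Among the collagens, COL5A1, which starts fibril assembly, had 11666, 8731 and 13029 in gSOX10 #2, against 1653, 1104 and 1513 in the parental line (log2 change 2.97, limma adjusted p = 7.61e-07). COL17A1, the hemidesmosomal collagen, had 1291, 2014 and 1617, against 48.9, 70 and 82.2. COL1A1 and COL1A2, the chains of type I collagen, rose by 2.30 and 3.01 but stayed low, with at most 520 and 215 in the clone. COL19A1 went the other way, with 43.1, 28.9 and 18.6 in gSOX10 #2, against 865, 873 and 1149.9. HAPLN1, the link protein of hyaluronan matrices, had 292, 244 and 132, against 3761, 3646 and 2906. COL2A1 of cartilage fell by 4.43. Of 25 enzymes that process or cross-link collagen 10 rose and 0 fell (0 lower in limma at an unadjusted p under 0.05 as well, and 1 called lower without gSOX10 #2 replicate 1), with LOXL2, a lysyl oxidase, at 33037, 33350 and 34282, against 6014, 5459 and 6336 in the parental line.

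**Figure D3:**
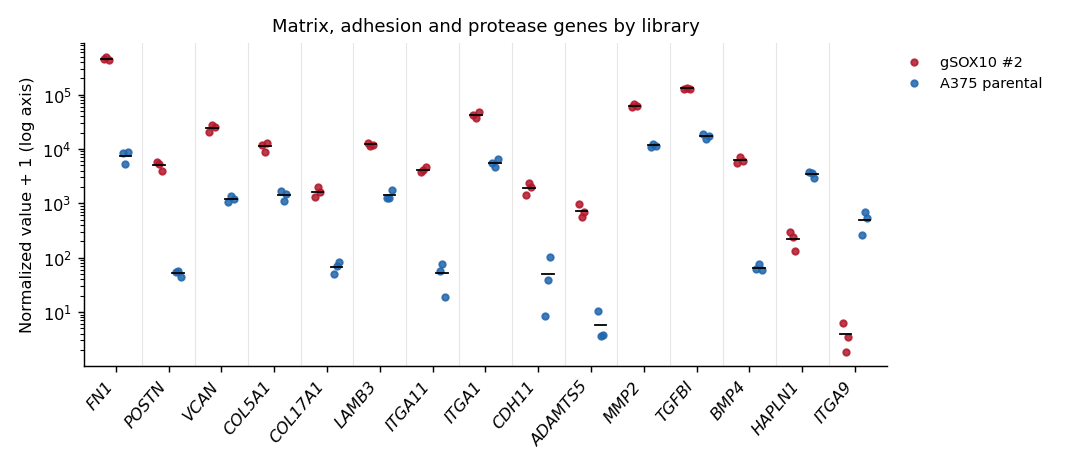
Normalized value plus 1 on a log axis for 15 matrix, adhesion, protease and growth factor genes, with 1 point per library (gSOX10 #2 in red, A375 parental in blue) and a black line at each group's mean. Clone libraries lie above all parental libraries for FN1 through BMP4 and below them for HAPLN1 and ITGA9.

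Of 24 integrins, the main receptors for matrix proteins, 9 rose and 2 fell, beside 15.9% higher and 7.78% lower over all genes, and 13 were not called. ITGA11, the collagen receptor chain of fibroblasts, had 3839.5, 4062 and 4654 in gSOX10 #2, against 56.6, 77 and 18 in the parental line (log2 change 6.57, SE 0.36, limma adjusted p = 1.88e-10). ITGA1, a chain that also binds collagen, had 42239, 36394 and 48463, against 5455, 4684 and 6458. ITGA5, the fibronectin receptor chain, had 43262, 40645 and 44031, against 10060.4, 10527 and 11644. ITGB4, the hemidesmosomal chain that pairs with laminin receptors, rose by 2.93, and ITGA3 by 1.70. ITGA9, a chain for tenascin and osteopontin, had 5.42, 0.872 and 2.42 in gSOX10 #2, against 263, 689 and 538, the largest change of the list in either direction. ITGA1 and ITGB4 were also higher than in gSOX10 #4, by 2.79 and 3.44 (limma adjusted p = 0.000154 and 2.16e-05).

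Of 16 classical cadherins, the calcium-dependent proteins that join cells of a kind, 8 rose and 1, CDH19, fell. CDH11, the cadherin of mesenchyme, had 1408, 2376 and 1955 in gSOX10 #2, against 7.41, 37.4 and 101 in the parental line, whose 3 libraries ranged widely but stayed below the clone. CDH7 rose by 3.43, CDH6 by 3.04 and CDH3 by 2.81. Of the contractile genes, MYOCD, the coactivator of smooth muscle genes, rose by 5.56, ACTA2, smooth muscle actin, by 2.59 and MYLK, which phosphorylates myosin, by 2.13. In this list of 30 tested genes 7 rose and 1 fell, with 0 falls without parental replicate 1 and 2 without gSOX10 #2 replicate 3. The shares called were 23.3% and 3.33%, beside 15.9% higher and 7.78% lower over all genes.

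Of 53 matrix proteases and inhibitors 23 rose and 4 fell, with a median of 1.07. ADAMTS5, an aggrecanase, had 966, 558 and 677 in gSOX10 #2, against 9.26, 2.62 and 2.82 in the parental line (log2 change 7.10, SE 0.58, limma adjusted p = 3.11e-08). MMP2, gelatinase A, had 58481, 67529 and 62798, against 10939, 12376 and 11410.3. Its membrane-bound activator MMP14 had 14366, 9923 and 12311, against 2280.1, 2565 and 2817. The lysosomal proteases CTSK and CTSB rose by 3.85 and 2.21, and the inhibitors TIMP1 and TIMP2 rose by 1.79 and 1.62, so proteases and their inhibitors were both higher. MMP1, the collagenase, had 31646, 11233 and 8012, against 1550.4, 1939.8 and 1193. Its change of 3.21 lost the call without gSOX10 #2 replicate 1, the highest library, when it was 2.63 (limma adjusted p = 0.0546). The neutrophil collagenase MMP8 had 6.29, 2.22 and 0.56 in the clone, against 228, 211 and 202, and MMP12, the macrophage elastase, fell by 4.01.

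Of 38 tested ligands, receptors and targets of TGF-beta and BMP signaling, 13 rose and 3 fell, or 1 fell without gSOX10 #2 replicate 2, and 22 were not called. BMP4, a BMP ligand that patterns the crest, had 5622, 7139 and 6025 in gSOX10 #2, against 61.5, 75.4 and 57.3 in the parental line (log2 change 6.58, SE 0.93, limma adjusted p = 1.93e-05). TGFB2 had 1539, 2458 and 1785, against 289, 181 and 138. The type II receptor TGFBR2 had 24531, 26845 and 30958, against 3081, 3134 and 3409.9. TGFB2 was also higher than in gSOX10 #4 (difference 2.94, limma adjusted p = 4.27e-05). BMP4 was higher than in gSOX10 #4 by 3.05 (limma adjusted p = 0.0246), a call lost when any library of either clone but gSOX10 #4 replicate 1 was left out, although the difference stayed at 2.95 to 3.12 (limma adjusted p of 0.0533 to 0.0695). The spread in these fits came from all groups of the series. With only the 6 libraries of the clones fitted the call held. LTBP1 and LTBP3, which store latent TGF-beta in the matrix, rose by 4.07 and 1.81. The BMP targets ID1, ID2 and ID3, inhibitors of basic helix-loop-helix factors, rose by 1.61, 1.93 and 1.17, and the activin antagonist FST fell by 1.90.

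In the Wnt pathway 14 of 41 tested genes rose and 4 fell. The falls numbered 1 without parental replicate 1 and 2 without parental replicate 2 or gSOX10 #2 replicate 2 or 3. AXIN2, a feedback inhibitor that beta-catenin induces, had 459, 471 and 433 in gSOX10 #2, against 17.4, 40.5 and 9.95 in the parental line. NKD1, an inhibitor of the same kind, had 530.1, 509 and 1400.3, against 56.4, 89.4 and 48. RNF43, which removes Wnt receptors from the surface, rose by 6.05, and LGR6, a receptor for R-spondin, rose by 5.82. WNT5A, a ligand of the beta-catenin-independent branch, had 20211, 22358 and 27893 in the clone, against 3139.9, 3084 and 2946. The nuclear partners of beta-catenin parted, as TCF7 had 709, 791 and 678, against 204, 145 and 103. LEF1 had 490.3, 341 and 349, against 1594, 1706 and 1976. AXIN2, NKD1 and TCF7 differed from gSOX10 #4 as well, by 2.39, 4.16 and 1.41 (limma adjusted p = 0.000923, 0.000111 and 0.00306).

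Of 20 Notch pathway genes 5 rose and 3 fell (25% and 15%), beside 15.9% higher and 7.78% lower over all genes. JAG1, a ligand, rose by 2.46 and HEY1, a target, by 2.63, while the receptor NOTCH3 had 194, 213 and 303 in gSOX10 #2, against 659, 674 and 644 in the parental line. Of 23 YAP and TEAD genes 1 rose and 5 fell. The rises numbered 0 without gSOX10 #2 replicate 3 and 2 without gSOX10 #2 replicate 1 or parental replicate 3. The falls included the factor TEAD4 (-2.05) and the matricellular target CCN1, with 1916, 2223 and 1858 in gSOX10 #2, against 6084, 5500.1 and 4716 in the parental line.

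Within the ERBB family ERBB3 fell, as given above, and EGFR rose. EGFR, which binds epidermal growth factor, had 8718, 7416 and 8682 in gSOX10 #2, against 3069, 2517 and 2368 in the parental line (log2 change 1.65, limma adjusted p = 4.68e-06). Its ligands BTC and AREG rose by 3.37 and 2.35, and NRG1, the ligand of ERBB3, rose by 1.58. Over the list of 15 genes, 6 rose and 2 fell, or 1 fell without parental replicate 1 or gSOX10 #2 replicate 2 or 3. Among the other receptor tyrosine kinases 5 of 30 rose and 5 fell (16.7% each), beside 15.9% higher and 7.78% lower over all genes. CSF1R, the macrophage growth factor receptor, had 201, 179 and 210.4 in gSOX10 #2, against 10.9, 7.99 and 17.8. Its ligand CSF1 had 3310.1, 4921 and 3286, against 667, 997 and 1016. FGFR1 rose by 1.39, FGFR4 fell by 1.73 and KDR, a VEGF receptor, had 11.2, 1.75 and 11.3 in gSOX10 #2, against 138, 142 and 105 in the parental line. AXL, a kinase linked to drug-tolerant melanoma, had 12916, 13594 and 11608 in the clone and 25734, 18434 and 16724 in the parental line and did not pass the test (log2 change -0.65, limma adjusted p = 0.0897).

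Axon guidance families held both rises and falls. EPHA3, an Eph receptor of repulsive contact, had 188, 207 and 64.7 in gSOX10 #2, against 6999.9, 7046 and 6931 in the parental line (log2 change -5.67, SE 0.29, limma adjusted p = 1.34e-10). EPHA7 and EPHB3 fell (log2 changes of -4.22 and -4.20), and EPHA5 and EPHB6 rose by 5.33 and 4.45, so Eph receptors changed in both directions. Of 18 Eph and ephrin genes 2 rose and 3 fell (11.1% and 16.7%), beside 15.9% higher and 7.78% lower over all genes. The rises numbered 4 without gSOX10 #2 replicate 2 and the falls 5 without gSOX10 #2 replicate 1. The netrin receptor DCC had 1007, 1002 and 784 in the clone, against 11.4, 2.91 and 66.4. Of 35 semaphorins, plexins, slits and netrins 13 rose and 2 fell, or 1 fell without gSOX10 #2 replicate 2, led in level by NRP1, the semaphorin and VEGF co-receptor, with 46359, 47598 and 48987 in gSOX10 #2 and 7812, 5894 and 5957 in the parental line, and SEMA3C, which rose by 1.99.

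Of 26 genes that report or damp MAPK signaling, 6 rose and 3 fell, or 1 fell without parental replicate 3, and the median was -0.03. The shares called were 23.1% and 11.5%, beside 15.9% higher and 7.78% lower over all genes. JUN rose by 1.62, the ERK phosphatase DUSP4 by 1.53 and PHLDA1 by 1.52, with 69173, 72727 and 69266 in gSOX10 #2, against 21502, 25147 and 27058 in the parental line. DUSP6, a direct read-out of ERK activity, had 18210.5, 13077 and 15951 in the clone and 7366, 8003 and 8996 in the parental line, just under the fold threshold at 0.95. It crossed it under equal library totals or quantile normalization, at 1.07 under both, and without gSOX10 #2 replicate 2 or parental replicate 3, at 1.07 and 1.02. CCND1, cyclin D1, changed by 0.54 and did not pass the test.

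DNA replication genes were lower in gSOX10 #2. None of 39 rose and 26 fell, with a median of -1.13, and every one of the 39 had a negative change. TYMS, thymidylate synthase, had 4453, 2913 and 4134 in gSOX10 #2, against 15798, 13896 and 14160.3 in the parental line (log2 change -1.95, SE 0.22, limma adjusted p = 1.39e-06). MCM6, a helicase subunit with the E2F letters printed above, had 3499.8, 2825 and 2964, against 9434, 9644 and 9398, and MCM3 fell by 1.30. RRM2, the ribonucleotide reductase subunit, had 19065, 7850.1 and 13561, against 44525, 33795 and 37028. Replicate 2 was the lowest clone library and replicate 1 the highest for RRM2, and both stayed below all 3 parental libraries. Among the 36 mitosis genes 7 fell and 0 rose in limma, with a median of -0.64 and 1 higher at an unadjusted p under 0.05. Without gSOX10 #2 replicate 2 the falls numbered 18 of 39 replication genes and 1 of 36 mitosis genes, and without parental replicate 1 and gSOX10 #2 replicate 3 the mitosis falls numbered 1 and 13. MKI67, the proliferation antigen Ki-67, had 26565, 7506 and 19504 in the clone, against 40794, 28396 and 30603, with replicate 1 close to the parental values. Its change of -1.06 (limma adjusted p = 0.0427) was -0.53 (limma adjusted p = 0.296) without gSOX10 #2 replicate 2, and leaving out any parental library also ended the call, at -1.17 to -0.91.

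Among 24 regulators of the G1 phase 2 rose, or 1 without gSOX10 #2 replicate 1, and 7 fell. CDKN1A, the CDK inhibitor p21 and a p53 target, had 19582, 42696 and 38549 in gSOX10 #2, against 5269.8, 4922 and 5015 in the parental line (log2 change 2.65, SE 0.42, limma adjusted p = 6.91e-05). CDK6, the kinase of cyclin D, had 10129.6, 8971 and 7884, against 25710, 24131 and 21826, and E2F2, an activating E2F, fell by 2.44. MYBL2, which drives mitotic genes, had 4515, 1772 and 2768 in the clone, against 10965, 8685 and 9595. Of 26 p53 targets 8 rose and 0 fell, with 0 lower at an unadjusted p under 0.05 in limma, among them TP53INP1 with 1232, 2138 and 2384, against 220.3, 278 and 246, the cytokine GDF15 with 956, 1866 and 1579, against 149, 235 and 225, and the death receptor FAS, which rose by 1.91. The clone's replicate 1 was the lowest of its group for CDKN1A, TP53INP1, GDF15 and FAS and the highest for RRM2 and MYBL2. The groups did not overlap for these genes, beside 60.6% of all tested genes. All were named among called genes, of which 4448 of 4565 did not overlap, so this is not a further result.

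**Figure D4:**
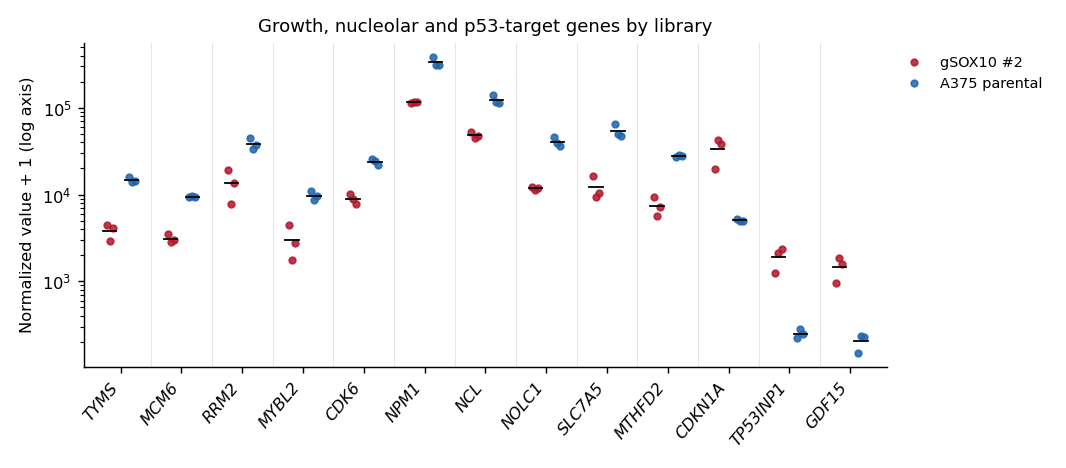
Normalized value plus 1 on a log axis for 13 growth, nucleolar, amino acid and p53-target genes, with 1 point per library (gSOX10 #2 in red, A375 parental in blue) and a black line at each group's mean. Clone libraries lie below the parental libraries for TYMS through MTHFD2 and above them for CDKN1A, TP53INP1 and GDF15.

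Genes of the nucleolus and of MYC were lower as well. Of 43 tested 24 fell and 1 rose, with a median of -1.06. NPM1, nucleophosmin, had 113404, 115801 and 117649 in gSOX10 #2, against 381137, 315694 and 313290 in the parental line (log2 change -1.54, SE 0.17, limma adjusted p = 1.18e-06). NCL, nucleolin, had 52707, 44610.5 and 47665, against 142084, 116543 and 112669. NOLC1, a chaperone of nucleolar transport, had 12389, 11294 and 11837, against 45679.6, 38918 and 36785. FBL, the rRNA methyltransferase fibrillarin, fell by 1.23 and DDX21, a nucleolar helicase, fell by 1.45. The mRNAs of 52 ribosomal proteins had a median of -0.50. In limma 0 were called in either direction, 51 had a negative change, and 46 were lower and 0 higher at an unadjusted p under 0.05. MYC had 579.9, 745 and 603 in gSOX10 #2, against 1380.1, 1462 and 1863, and its change of -1.28 lost the call without parental replicate 3, when it was -1.15 (limma adjusted p = 0.0637). The lncRNA SNHG1, a host of small nucleolar RNAs, had 2239.7, 2767 and 3290.5 in the clone, against 15234, 11173 and 13274.

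Other abundant genes that fell were protein-folding and chromatin genes, each by little more than the fold threshold. HSP90AA1, the inducible HSP90, had 223149, 173127 and 199100 in gSOX10 #2, against 461576, 383377 and 398939 in the parental line (log2 change -1.07, limma adjusted p = 0.000516). TUBA1B, HSPD1, CCT5, PTMA, SET and HMGB1 changed by -1.35 to -1.04. Without gSOX10 #2 replicate 2 or parental replicate 1, HSP90AA1, HSPD1 and TUBA1B lay between -0.99 and -0.93, short of the fold threshold. After equal library totals HSP90AA1, HSPD1, TUBA1B, PTMA and SET lay between -0.98 and -0.92. After quantile normalization these genes and CCT5 lay between -0.98 and -0.66, so none of these 6 calls held under that scaling. LMNB1, lamin B1 of the nuclear envelope, fell by 2.19, and EZH2, the H3K27 methyltransferase, fell by 1.61, while HMGA2, a chromatin protein of embryonic tissue, had 87205, 78504 and 60459.6 in gSOX10 #2, against 22488, 19388 and 18749.

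The amino acid response list, genes that ATF4 can induce, had 9 of 22 lower and 2 higher, or 1 higher without parental replicate 1 or gSOX10 #2 replicate 1 or 2. SLC7A5, the leucine transporter, had 16436, 9378 and 10559 in gSOX10 #2, against 64363, 49406 and 47568 in the parental line. MTHFD2, a mitochondrial folate enzyme, had 9263, 5657 and 7221, against 27428, 28250.2 and 27509 (log2 change -1.94, limma adjusted p = 1.55e-05). PHGDH, which opens serine synthesis, fell by 1.67, ASNS, asparagine synthetase, fell by 1.61, and SLC7A11, the cystine transporter, fell by 1.91. Replicate 1 of the clone was the highest of its group for these 5 genes and remained under the parental libraries.

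Respiratory genes differed by the genome that encodes them. Of the 13 protein genes of mitochondrial DNA 7 rose and 1 fell, with a median of 1.00, whereas of 43 nuclear genes of the respiratory chain and its regulators 1 rose and 1 fell, with a median of -0.06. MT-CO2, a cytochrome oxidase subunit, had 164012, 183131 and 183433 in gSOX10 #2, against 37999, 41686 and 50781 in the parental line (log2 change 2.03, SE 0.18, limma adjusted p = 7.48e-08). MT-ND6, the single protein gene on the light strand, fell by 1.83. Reads from mitochondrial genes took 2.09% to 2.30% of the summed values in the clone and 0.987% to 1.19% in the parental line. The nuclear gene that rose was PPARGC1A, the coactivator PGC-1alpha of mitochondrial biogenesis, with 1056, 835 and 725, against 49, 40.5 and 58.6, and the one that fell was TFAM, which packages mitochondrial DNA, with 5359.8, 3919.8 and 4563, against 12342, 10125 and 10084.

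In metabolism outside the mitochondria, STC1, a hormone induced by low oxygen, had 13175, 9934 and 16894 in gSOX10 #2, against 331, 286 and 546 in the parental line. EPAS1, the hypoxia factor HIF-2alpha, had 2877, 3689.9 and 2886, against 108, 214 and 133 (log2 change 4.42, limma adjusted p = 3.22e-10). The carbonic anhydrases CA9 and CA12 rose by 3.57 and 3.35, and HK2, hexokinase of the first step of glycolysis, fell by 1.93. Of the 36 glycolysis and hypoxia genes 7 rose and 1 fell, beside 15.9% and 7.78% of all genes. CD36, a fatty acid receptor, rose by 5.17, the lipase LIPG by 4.82 and DGAT2, the last enzyme of triglyceride synthesis, by 2.36, while LPL, given above, and FABP5, a fatty acid binding protein, fell.

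Interferon-stimulated genes were higher, with 22 of 49 up, 0 down and a median of 0.77. OASL, a sensor-like protein of the antiviral response, had 1193, 960 and 536 in gSOX10 #2, against 69.7, 64.9 and 47.6 in the parental line (log2 change 3.80, SE 0.38, limma adjusted p = 3.21e-07). TRIM22, an antiviral ubiquitin ligase, had 673, 1366 and 1212, against 103, 108 and 74.1. IRF9, the DNA-binding part of the factor that reads the response element, had 889, 936 and 1051, against 202, 159 and 198. ISG20 and IFIT1, whose windows are printed above, rose by 2.29 and 1.76, and RIGI, the RNA sensor, by 1.35. At an unadjusted p under 0.05, 5 members were lower.

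Complement genes were higher in 12 of 20 cases and lower in 0, also 0 at an unadjusted p under 0.05 in limma, with a median of 1.64. CLU, clusterin, had 2873, 3916 and 4853 in gSOX10 #2, against 549, 537 and 395 in the parental line (log2 change 2.95, limma adjusted p = 1.90e-06). CFI, a protease that inactivates C3b, had 3422, 3019.8 and 2593, against 597, 515 and 553. C3, the central component, had 4499, 7075 and 5835, against 684, 1496 and 1418, and its change of 2.33 lost the call without gSOX10 #2 replicate 2 or 3 or parental replicate 1, when it was 1.97 to 2.32 (limma adjusted p of 0.0595 to 0.103).

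The MHC classes moved apart. Of 24 genes in the class I list, which also holds ligands and loading factors such as ULBP2 and TAPBP, 9 rose and 1 fell. The 1 that fell was CD274, a checkpoint ligand and not a class I gene. The falls numbered 0 without parental replicate 3 or gSOX10 #2 replicate 2. Of 14 genes in the class II list 11 fell and 0 rose (0 higher in limma at an unadjusted p under 0.05). HLA-B had 8719.6, 6766 and 6894 in gSOX10 #2, against 2757, 1896 and 2086 in the parental line. HLA-DRA, the shared alpha chain of HLA-DR, had 1819, 1355 and 1597 in the clone, against 19192, 18513 and 18196 (log2 change -3.56, SE 0.29, limma adjusted p = 3.24e-08). CD74, the invariant chain that guards the class II groove, had 10069.9, 11139.7 and 11878, against 43281, 43381 and 50923. CIITA, the coactivator that class II genes need, had 632, 344 and 472, against 2597, 2138 and 1898. HLA genes are alike in sequence and vary between people, so the division of reads among them is uncertain.

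Chemokines and cytokines were mixed, 11 of 41 higher and 4 lower (26.8% and 9.76%), beside 15.9% higher and 7.78% lower of all genes. The lower count was 7 without parental replicate 1 and 2 without parental replicate 2 or 3 or gSOX10 #2 replicate 3. CCL5, which attracts T cells, had 789.9, 301 and 334 in gSOX10 #2, against 12.1, 2.2 and 2.06 in the parental line (log2 change 6.41, SE 1.00, limma adjusted p = 5.16e-05). TSLP, an epithelial alarm cytokine, rose by 3.24, and IL1A, interleukin 1 alpha, fell by 3.41. TNFAIP3, the NF-kappaB feedback enzyme A20, had 9380.1, 8405 and 8292, against 787, 937 and 897, and NFKB1 fell by 1.40. Parental replicate 1 stood apart for several genes of this kind, with BIRC3, the inhibitor of apoptosis cIAP2, at 241, 1104 and 1652 in the parental line and 367, 718 and 476 in gSOX10 #2. BIRC3 changed by -0.60 and did not pass the test (limma adjusted p = 0.517). Among apoptosis regulators, BMF, a BH3-only protein, rose by 2.68 and BCL2 fell by 2.42, in a list with 9 of 47 higher and 3 lower, beside 15.9% and 7.78% over all genes.

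Ion channels were more often higher than lower, 14 of 39 against 1. TRPC4, a calcium-permeable channel, had 3427, 3994 and 3247 in gSOX10 #2, against 67.1, 65.2 and 62.8 in the parental line (log2 change 5.75, SE 0.15, limma adjusted p = 8.75e-15). PIEZO2, a channel opened by stretch, had 1950.4, 1556 and 1654, against 37.6, 43.5 and 33.9, and TRPV2 rose by 2.49. The cyclic nucleotide phosphodiesterases, which end cAMP and cGMP signals, moved both ways, with 7 of 22 higher and 5 lower. PDE1B had 1059, 1629 and 1225 in gSOX10 #2, against 17.7, 6.15 and 13.7, PDE5A had 2498, 6134 and 5593, against 72, 122 and 93.6. PDE3B had 27.1, 1.64 and 3.32, against 218, 229 and 255.

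Of the cancer-testis genes, silent in most adult tissues, SPANXB1 had 10500.4, 11141 and 9561 in gSOX10 #2, against 176, 209 and 207 in the parental line, and MAGEA1 had 68, 13 and 17.5, against 318, 293 and 232. In this list 4 of 30 rose and 7 fell. SPANX, GAGE and MAGE genes lie in families of near copies, and which copy gave a read is uncertain. Of 2792 lncRNAs 543 were higher and 207 lower, 26.9% together, beside 23.7% of all tested genes. LINC01419 had 72, 61.5 and 40.3 in gSOX10 #2, against 13937, 14253 and 14048, and LINC00707 fell by 3.83. HCP5, which lies in the MHC class I region, had 1236, 1067 and 1091, against 115, 104 and 104, and LINC02334 rose by 6.14, WAKMAR2 by 4.59 and LINC02593 by 5.74.

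Markers of other cell types were examined because a culture of 1 line should hold no other cells. The counts stand beside 15.9% higher and 7.78% lower over all genes. Of 14 tested fibroblast markers 8 rose and 0 fell (0 lower in limma at an unadjusted p under 0.05), and the list summed to 4242 to 4623 in gSOX10 #2 and 1209 to 1394 in the parental line. FAP had 421, 505 and 715, against 48.5, 53.7 and 52.9, while DCN, decorin, had 53, 53.2 and 118 in the clone and 72.1, 85.4 and 60 in the parental line, and THY1 reached at most 2.84 in the clone and 14.8 in the parental line. The 8 that rose include COL1A1, COL1A2 and COL3A1, which the collagen list also holds, and the part that any fibroblasts had in the matrix results was not tested. Of 16 leukocyte markers 8 were tested, 3 rose and 1 fell, with summed values of 6592 to 8604, against 1786 to 1951, most of it CD68, a lysosomal protein, with 6182, 8184 and 7764, against 1286, 1226 and 1156. CD3E, MS4A1 and TYROBP were at 0 in all 6 libraries. Of 10 tested endothelial markers 3 rose and 2 fell, or 1 rose without parental replicate 1 and 1 rose and 1 fell without gSOX10 #2 replicate 2 (sums of 1610 to 2165, against 1239 to 1618), and CDH5, which defines endothelium, reached at most 20.5. Of 11 keratinocyte markers 5 rose and 1 fell (sums of 17010 to 17378, against 3864 to 4273), with LAMB3 the main contributor, KRT1 at 0 and DSG3 at most 0.88 in the clone and 3.41 in the parental line.

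The comparison of the clones tested which of these changes differed from gSOX10 #4. Both clones were set against the same parental libraries, so their changes share those controls, and the test used here was gSOX10 #2 against gSOX10 #4. In it 1362 genes were higher in gSOX10 #2 (7.06%) and 510 lower (2.64%) of 19290, together 9.7%. Of the 4565 genes called against the parental line, 3479 (76.2%) were not called different from gSOX10 #4. That does not show them equal. Of the 3064 higher genes 684 were also higher than in gSOX10 #4, and of the 1501 lower genes 208 were also lower. Both contrasts use the same gSOX10 #2 libraries, so these overlaps are not independent.

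The 8 named genes higher in gSOX10 #2 than in gSOX10 #4 were PDE1B, GJA5, PCDHGB5, MEGF6, PADI2, PDE5A, NPTX2 and PXDN. PDE1B averaged 1304 ± 293 in gSOX10 #2, 2.74 ± 2.52 in gSOX10 #4 and 12.5 ± 5.87 in the parental line (SD, n = 3 each), a difference between clones of 8.77 (limma adjusted p = 2.15e-09). GJA5, connexin 40, averaged 557 in gSOX10 #2, 0.674 in gSOX10 #4 and 85.6 in the parental line, and its rise over the parental line (2.55) was 2.14 (limma adjusted p = 0.0687) without gSOX10 #2 replicate 2, which ended that call. PXDN, a peroxidase that links collagen IV, averaged 2186, 67.5 and 128 in the same order. PCDHGB5 shares its last exons with the other genes of its cluster, which makes its reads uncertain. Genes lower in gSOX10 #2 than in gSOX10 #4 included BASP1, a membrane protein of growth cones, which averaged 221 in gSOX10 #2, 3103 in gSOX10 #4 and 42.8 in the parental line (difference -3.80, limma adjusted p = 2.39e-11), GRB10, an imprinted adaptor (-3.09), and ARHGDIB (-2.67). HBE1 and OR51B5 differed by -3.59 and -2.75, but these genes overlap on chromosome 11. SERPINB2, a protease inhibitor, differed by -4.05, MAGEB2 by -5.18 and MARCHF4, a ubiquitin ligase, by -3.36.

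The gene groups above were not tested as groups between the clones, and the counts that follow are of single genes. Of the 14 tested MHC class II genes 10 were higher than in gSOX10 #4. HLA-DRA averaged 1590.1 in gSOX10 #2, 61.6 in gSOX10 #4 and 18634 in the parental line, a difference between the clones of 4.69 (limma adjusted p = 2.60e-09). Of the 24 integrins 10 were higher than in gSOX10 #4 and 0 lower, and of the 39 ion channels 13 were higher and 0 lower, beside 7.06% of all genes. For the 39 replication genes, 36 mitosis genes, 26 p53 targets, 52 ribosomal proteins and 13 mitochondrial genes limma called 0 in both directions. At an unadjusted p under 0.05, 2 replication genes were higher and 2 lower than in gSOX10 #4, 1 mitosis gene higher and 0 lower, 3 p53 targets higher and 1 lower, 0 ribosomal protein genes higher and 46 lower, and 9 mitochondrial genes higher and 0 lower. PRRX1 averaged 19939 in gSOX10 #2, 738 in gSOX10 #4 and 5995 in the parental line (difference 4.76, limma adjusted p = 2.66e-07), and FLT1, a VEGF receptor, averaged 165 in gSOX10 #2, was listed at 0 in gSOX10 #4 and averaged 1056 in the parental line. CCL5 averaged 475 in gSOX10 #2, 13.8 in gSOX10 #4 and 5.46 in the parental line (difference 5.45, limma adjusted p = 0.000706). SOX9 and TRPC4 were not called different, with differences of 0.40 and -0.03.

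**Figure D5:**
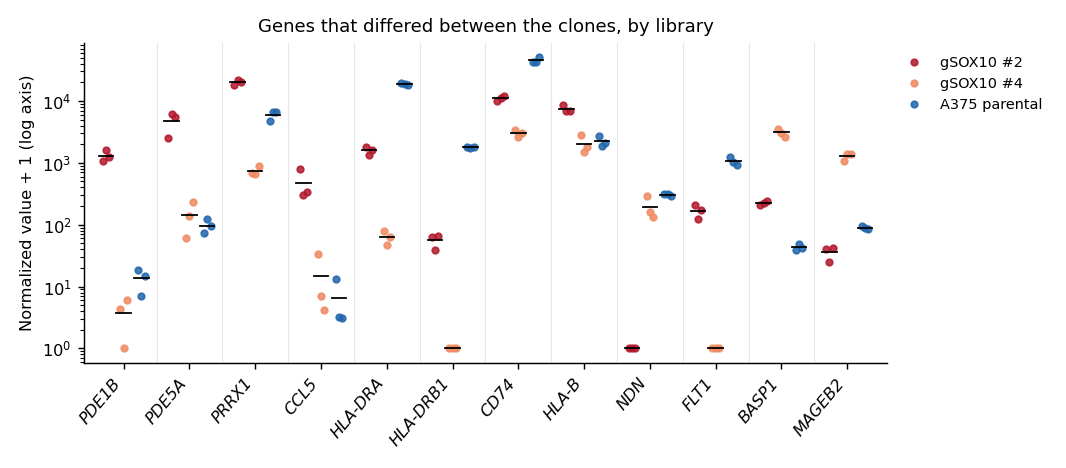
Normalized value plus 1 on a log axis for 12 genes in gSOX10 #2 (red), gSOX10 #4 (orange) and A375 parental (blue), with 1 point per library and a black line at each group's mean. HLA-DRA and CD74 lie lower in both clones than in the parental line and lower still in gSOX10 #4, while NDN is at 0 only in gSOX10 #2 of the 3 groups and FLT1 only in gSOX10 #4.

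By chromosome, with 13417 genes of a mean of at least 100, the median change lay between -0.15 and 0.08 for all nuclear chromosomes but chromosome 13. On chromosome 13 it was -0.34 over 245 genes, of which 43 fell (17.6%) and 24 rose (9.80%), beside 7.71% lower and 13.9% higher over these 13417 genes. On chromosome 21, with a median of -0.15, 26 of 151 genes fell (17.2%) and 21 rose (13.9%). In gSOX10 #4 against the same parental libraries the chromosome 13 median was -0.53, and chromosomes 16 and 17 had medians of -0.43 and -0.48, where those of gSOX10 #2 were -0.04 and -0.01. The part that copy number had in these values was not tested.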

How the data were processed

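RNA-seq libraries of A375 parental cells and of the SOX10 knockout clone gSOX10 #2 were compared, 3 of each, with 3 of gSOX10 #4 as a further contrast. The sources differ on the library kit, naming an unstranded and a stranded TruSeq kit for the same poly(A) libraries. Per the submitters' processing notes, the authors used GRCh38, STAR 2.6.1a, RSEM and DESeq2, while the paper gives another version of STAR. The deposited values are a normalized signal per gene, which is neither whole nor a count. Between 25.5% and 62.3% of low values per library (37.0% and 62.3% in the 6 compared) fell within 0.05 of whole multiples of the smallest step, so whole reads were not recovered and no count model was run. Of 58870 gene IDs, 58472 matched GENCODE 44 for names.

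Values were tested as log2(value + 1), so changes of low genes are understated. Genes at 10 or more in at least 3 of the 21 libraries were kept (19290). limma 3.58.1 (R 4.3.3) was fitted with 7 group means and a mean-variance trend, all 21 libraries sharing 1 estimate of the spread (14 residual and 4.70 prior degrees of freedom), which includes drug-treated and other clones. Calls required a Benjamini-Hochberg adjusted p no higher than 0.05 and at least a 2-fold difference. The code was tested on simulated data.

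The members and the 53 gene lists were chosen with earlier results of these data known. Named genes were SOX10, list members with the lowest p in each direction or a role the text explains, the 12 rising and 12 falling protein-coding genes of largest change (groups not overlapping, mean of at least 500), the 10 most abundant called genes and 6 non-coding genes in each direction, genes at 0 in 1 group and at 100 or more in the other, and the 8 genes in each direction that differed most between the clones. Titles number the gSOX10 #2 libraries from 0, so replicates were renumbered in accession order. Alternatives were no filter, a filter within the 6 libraries, a fit of those alone, a pseudocount of 10, equal library totals, quantile normalization, a replicate block and leaving out each library. A few genes that these rules name are not reported here. The guide sequence is not used here. Promoters were RefSeq windows of 300 bases (GRCh38.p14).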

Additional observations from a re-analysis of the deposited data

Results flagged for a closer look

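For 6 of the genes with the largest differences between the clones, the knockout clones lay on opposite sides of the same 3 parental libraries, and each change was called. These 6 were chosen among genes already called different between the clones, so that call is no separate support. Over all genes 56 had opposite calls and a called difference between the clones, of which 49 were higher and 7 lower in gSOX10 #2. The difference of gSOX10 #2 minus gSOX10 #4 was 8.77 for PDE1B, 8.45 for GJA5, 7.99 for PCDHGB5, 7.61 for MEGF6, -5.18 for MAGEB2 and 5.10 for NPTX2 on the log2 scale. The calls of gSOX10 #4 against the parental line were not repeated under the alternatives. For PDE1B and MEGF6 they rest on low values, with means of 2.74 and 2.31 in gSOX10 #4 and 12.5 and 37.5 in the parental line.

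PCDHGB5, a protocadherin, had 742, 797 and 745 in gSOX10 #2, a mean of 3.26 in gSOX10 #4 and 220.3, 231 and 228 in the parental line (limma adjusted p between the clones = 8.54e-08). Its rise over the parental line, 1.74, lost the call when any 1 of the 6 libraries was left out, at 1.71 to 1.76 (limma adjusted p of 0.0667 to 0.0837). The SE, 0.64, came from the fit of all 21 libraries. The call was also lost with no filter and after quantile normalization, and it held in a fit of only the 6 libraries. MEGF6, a protein of EGF repeats, had 656, 439 and 508 in gSOX10 #2, a mean of 2.31 in gSOX10 #4 and 34.4, 71.4 and 6.51 in the parental line (limma adjusted p between the clones = 1.83e-06). NPTX2, a pentraxin of synapses, had 2621, 2001 and 1262 in gSOX10 #2, a mean of 59.2 in gSOX10 #4 and 595, 371 and 323 in the parental line (limma adjusted p between the clones = 4.58e-08). MAGEB2, a cancer-testis gene with near copies, had 39.4, 24.3 and 41.2 in gSOX10 #2, a mean of 1276 in gSOX10 #4 and 94.5, 86.7 and 84.1 in the parental line (limma adjusted p between the clones = 7.96e-08). Its fall against the parental line, -1.35, was -1.11 (limma adjusted p = 0.0672) without gSOX10 #2 replicate 2.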

How the results depend on the processing

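The number of genes called in gSOX10 #2 against the parental line was 4565 and ran from 3928 with a pseudocount of 10 to 4888 with no filter over the alternatives that kept all libraries. Leaving out 1 library gave 3909 to 4689 genes. Against gSOX10 #4 it was 1872, from 1375 in a fit of only the 6 libraries to 1899 with no filter, and 1565 to 1865 with 1 library left out. The direction of calls moved with the scaling. Of the calls against the parental line 67.1% were higher as reported, 73.9% after equal library totals, which shifted the median of all genes to 0.15, and 53.9% after quantile normalization. Against gSOX10 #4 the share was 72.8% as reported and 59.2% after quantile normalization (1043 higher, 719 lower). Title numbers 1 and 2 occur in each group, but libraries with the same number did not deviate together (r of -0.118 and 0.00813 with the parental line, -0.0523 and -0.0567 with gSOX10 #4). With a replicate block on the title number 4563 and 1678 genes were called. No other library shares the title number of gSOX10 #2 replicate 1, so the block took that library out of both contrasts. It is thus no check apart from leaving that library out. Of 231 named genes called against the parental line, 14 lost the call under at least 1 alternative, 9 of them after quantile normalization, 6 after equal library totals and 3 with the replicate block, and 0 reversed. Of 28 named genes called between the clones, 1, BMP4, lost the call.

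With 3 libraries per group from 1 clone, no control clone and no recoverable read depth, small changes of low genes were not detectable.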
